A study of Mus musculus with 6 samples.

Results

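Gene expression of Lpin2 KO RAW-D cells was compared with that of WT RAW-D cells after LPS, on 3 of the 6 arrays of the series. The 2 KO arrays, from clones #1 and #2, were set against the 1 WT array over all 19505 genes that the array annotation names, as the difference of each clone and of their mean. Cytokines, chemokines, interferon-stimulated genes and genes of the cell cycle, replication, repair and histones were counted but not described, so that the account is of the remaining 18684 genes. RAW-D is a subclone of the mouse macrophage line RAW264.7 that forms osteoclasts readily. All 3 cultures received lipopolysaccharide (LPS), a bacterial outer membrane component sensed through TLR4. The dose was 200 ng/mL for 4 h, in α-MEM with fetal bovine serum, and total RNA was measured on mouse Clariom S arrays with 1 array per culture. The other 3 arrays are of the same cells left untreated. The untreated arrays of the 2 KO clones helped to estimate the spread, to which the 1 untreated WT array added nothing. All 3 were the baseline for the counts of the response to LPS given below.

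Lpin2 encodes lipin2, a phosphatidate phosphatase that turns phosphatidate into diacylglycerol on the way to triacylglycerol and phospholipids. In macrophages, LPS acts through TLR4 on NF-κB, MAP kinases and interferon regulatory factors, and within hours the cells change their surface receptors, adhesion, survival genes and central metabolism. Macrophages of this kind can also fuse into osteoclasts, the cells that resorb bone, when RANKL is present, but no RANKL was given here.

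Several features limit the comparison. Each KO line is a single clone, made with CRISPR/Cas9 and homology-directed repair plasmids and selected with puromycin, and the sources used here do not say that the WT cells went through selection or cloning. WT cells with LPS have 1 array, so their variation was assumed to be that between the KO clones, and the smallest p that exact permutation of these 3 arrays allows is 0.333. Nothing beyond the clone numbers describes separate cultures, so the p-values cover only the spread between these arrays. The WT array with LPS also stood apart in its response: clones #1 and #2 departed by over 2-fold from their own untreated cultures in 2671 and 2281 genes, and WT cells did so in 144. As it is the only such array, no result can be given without it, and the part of this weak response in the differences below was not tested. A gene was called above background on an array if its signal was above that of 95% of the negative controls there, a log2 value of 9.435 and 9.434 on the KO arrays and 9.117 on the WT array. From 28.7% to 31.4% of the named genes did so. Macrophage markers were above background for 10 of 11 genes in each clone and 9 of 11 in WT cells. Their summed signal, on the log2 scale, was 19.53 and 19.48 in the clones and 19.21 in WT cells, and 3 of them (Adgre1, Fcgr3 and Mpeg1) rose. Markers of dendritic cells, neutrophils, mast cells, lymphocytes, fibroblasts or epithelium, and erythroid cells were above background on 0 of the 3 arrays. Lpin2 itself had log2 signals of 7.52 and 7.98 in KO clones #1 and #2 and 6.84 in WT cells, below background on each array (limma, adjusted p = 0.123, or 0.0342 with the clone as a replicate block), so its signal does not check the genotypes.

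With LPS, the KO clones differed from the WT array in both directions, at an adjusted p under 0.05 by limma with p-values adjusted over all genes. Of the 19505 genes tested, 902 (4.62%) were higher in KO cells and 1299 (6.66%) were lower, and both clones lay on the same side of the WT array for each of them. The median difference over all genes was -0.003 on the log2 scale. Without a test, 850 genes (4.36%) were over 2-fold higher in each clone and 1091 (5.59%) over 2-fold lower. Expressed genes were called more often: among the 5186 genes above background on all 3 arrays, 8.52% were higher and 9.49% lower. Tested on their own, with p-values adjusted over these 5186 alone, 757 (14.6%) were higher and 886 (17.1%) lower, and an intensity trend in the fit over all genes called 1072 (5.5%) and 1506 (7.72%). Cytokine, interferon and cell cycle genes made up 151 of the higher and 296 of the lower genes, which left 751 higher and 1003 lower. Of those 751, 380 were above background on all 3 arrays, with a median log2 difference of 1.44, and 91 of the 380 exceeded 4-fold. Of the 1003 lower genes, 349 were above background on all 3 arrays, with a median of -1.22, and 24 of them exceeded 4-fold. Another 138 of the higher genes were below background in WT cells, 253 of the lower genes were below background in both clones, and 191 higher and 357 lower genes were below background on all 3 arrays, so that their differences lie within dim signal. Clone #1 lay further from the WT array than clone #2 for 68.2% of all genes called.

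**Figure D1:**
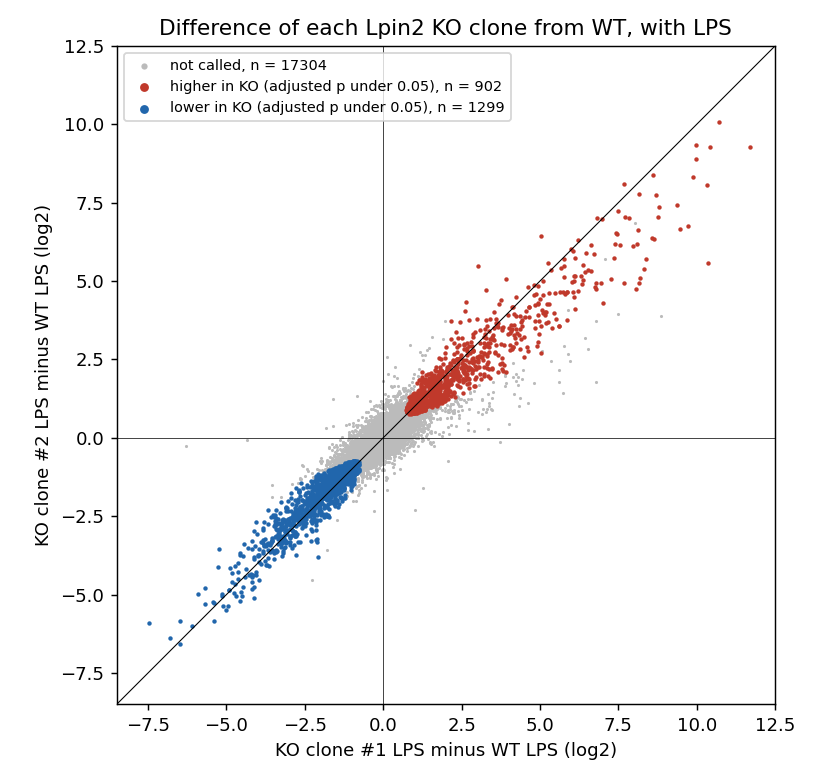
Log2 difference of KO clone #2 from the WT array against that of clone #1, both with LPS, 1 point per named gene (n = 19505), with genes higher in KO cells in red (902), lower in blue (1299) and not called in grey; the diagonal marks equal differences. Both axes use the same WT array, and the called genes lie on the same side of 0 for both clones.

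Among genes measured above background on all 3 arrays, those that rose most in KO cells encode inhibitors of signaling, survival proteins and an inhibitor of proteases. Errfi1, an inhibitor of EGF receptor family kinases, had log2 signals of 16.23 and 15.95 in KO clones #1 and #2 and 10.55 in WT cells. That is a difference of 5.54 (standard error 0.35, adjusted p = 0.00107 by limma), or 46.6-fold. Timp1, which inhibits matrix metalloproteinases, had signals of 14.57 and 14.56 in KO clones #1 and #2 and 9.21 in WT cells (difference 5.36, standard error 0.36, adjusted p = 0.00112). For both genes the clones lay close together and far above the WT array. Socs3, a feedback inhibitor of JAK-STAT signaling, stood at 13.78 and 14.05 in the KO clones, against 9.56 in WT cells (difference 4.36, adjusted p = 0.000606). Tnfaip3 encodes A20, which restrains NF-κB, and stood at 15.10 and 14.62 in the KO clones, against 10.75 in WT cells (difference 4.11, adjusted p = 0.00107).

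Survival genes of the Bcl2a1 family, whose products block apoptosis, were next to them. Bcl2a1d stood at 14.96 and 14.48 in the KO clones, against 10.30 in WT cells. Bcl2a1b stood at 15.20 and 14.69 in the KO clones, against 10.66 in WT cells. Bcl2a1a stood at 14.73 and 14.03 in the KO clones, against 10.33 in WT cells. The 3 rose by 4.42, 4.29 and 4.05 with adjusted p of 0.00105, 0.00116 and 0.00251, but they are near-identical copies whose probes may share signal, so they cannot be counted as separate results. Pim1, a serine/threonine kinase that promotes survival, rose by 3.73 (adjusted p = 0.00301), with 15.79 and 15.12 in the KO clones, against 11.72 in WT cells. Btg1, an antiproliferative gene, rose by 3.86 (adjusted p = 0.00330). C5ar1, the receptor for the complement fragment C5a, rose by 3.70 (adjusted p = 0.000766) and was alike in the clones, at 13.13 and 13.31 in the KO clones, against 9.52 in WT cells. The inhibitory immunoglobulin-like receptor gene Milr1 and Lztfl1, which encodes a protein of ciliary trafficking, rose by 3.80 and 3.77 (adjusted p = 0.00251 and 0.00113).

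Genes that fell most among those measured on all 3 arrays spanned the cytoskeleton, lipid elongation, the nuclear envelope and kinase signaling. Scin, which encodes the actin-severing protein scinderin, had log2 signals of 10.04 and 9.87 in KO clones #1 and #2 and 13.72 in WT cells, so that it fell by 3.76 (standard error 0.21, adjusted p = 0.000886). Elovl5, which lengthens polyunsaturated fatty acids, stood at 11.16 and 11.83 in the KO clones, against 14.56 in WT cells (difference -3.07, adjusted p = 0.00293). Both clones were far below the WT array for either gene. Lbr, the lamin B receptor of the inner nuclear membrane, and Cbx5, which encodes the heterochromatin protein HP1α, differed by -2.72 and -2.23 (adjusted p = 0.00113 and 0.00285). Cd80, a costimulatory ligand for T cells, stood at 12.17 and 11.04 in the KO clones, against 14.30 in WT cells (difference -2.70, standard error 0.45, adjusted p = 0.0164), with clone #2 over 2-fold below clone #1. The Ras activator Rasgrp3, the protein kinase C gene Prkch and the Wnt co-receptor Ryk differed by -2.68, -2.59 and -2.39 (adjusted p = 0.00325, 0.00278 and 0.00159). Fkbp5, a co-chaperone of the glucocorticoid receptor, and the ETS factor Etv5 differed by -2.44 and -2.27 (adjusted p = 0.00146 and 0.00554). Knstrn and Helb differed by -2.53 and -2.43, and as a spindle protein and a DNA helicase they belong by function to the cell cycle genes left aside, though their names were not in that list. All 24 genes of the plot kept their direction and passed the test in each of the 15 other fits. Not all of these fits are separate checks. That without the untreated WT array repeats the fit used here, and those without either untreated KO array repeat that of the 3 LPS arrays alone. All fits also share the same WT array with LPS, so the direction had little room to change.

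**Figure D2:**
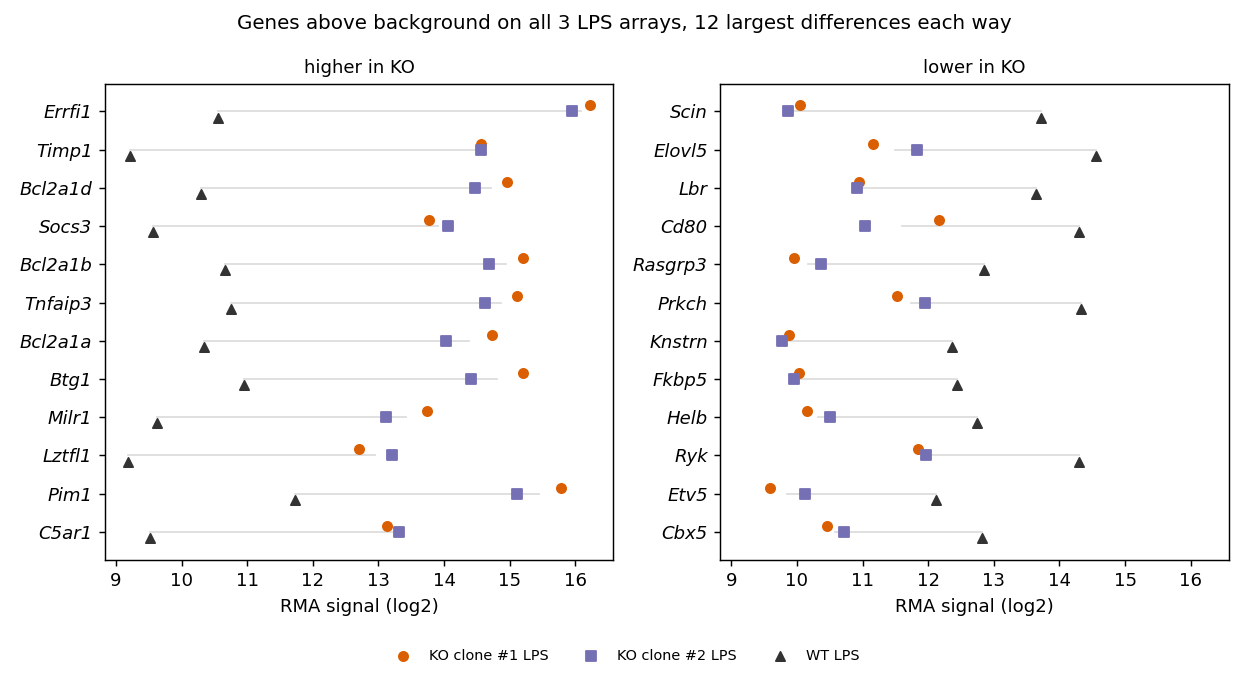
RMA log2 signal with LPS in KO clone #1 (circles), KO clone #2 (squares) and WT cells (triangles), 1 array each, for the 12 genes with the largest differences in each direction among those above background on all 3 arrays. In the left panel both clones lie above the WT array, by 5.54 for Errfi1 to 3.70 for C5ar1 on average, and in the right panel both lie below it, by -3.76 for Scin to -2.23 for Cbx5.

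A second group of genes was above background in both KO clones and below it in WT cells. For these, a fold is given as a lower bound, the mean of the clones over the background of the WT array, and the bound need not hold for each clone alone. The adjusted p beside it tests the signals as measured. Serpinb2, which encodes the plasminogen activator inhibitor PAI-2, had log2 signals of 16.07 and 15.44 in KO clones #1 and #2 and 5.36 in WT cells, at least 99.5-fold higher in KO cells (adjusted p = 0.000226). Tnc, the matrix glycoprotein tenascin-C, stood at 15.53 and 14.42 in the KO clones, against 5.54 in WT cells, at least 57.9-fold higher (adjusted p = 0.000712). Slc7a8, a transporter of large neutral amino acids, stood at 15.11 and 14.73 in the KO clones, against 6.95 in WT cells, at least 55.9-fold higher (adjusted p = 0.000226). Both clones stood far above background for these genes and the WT array below it. The TNF receptor gene Tnfrsf1b was at least 75.0-fold higher, the acute phase gene Saa3 at least 42.8-fold and the UDP receptor gene P2ry6 at least 41.3-fold (adjusted p = 0.000226, 0.000614 and 0.000606). Hdc, which makes histamine from histidine, stood at 14.15 and 13.27 in the KO clones, against 6.73 in WT cells, at least 24.1-fold higher (adjusted p = 0.000870). The bounds of Mustn1, the dipeptidase gene Dpep2, the tyrosine phosphatase gene Ptpre and the Src family kinase gene Fgr were 29.4-fold, 18.8-fold, 16.2-fold and 15.3-fold (adjusted p = 0.00105, 0.000606, 0.00120 and 0.000606). Igf1, insulin-like growth factor 1, was least alike between the clones of the 12, at 13.75 and 12.23 in the KO clones, against 7.54 in WT cells (at least 14.7-fold, adjusted p = 0.00841, but 0.0664 with an intensity trend and robust moderation).

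The reverse group was above background in WT cells and below it in both clones, so that the bound is the WT signal over the background of the KO arrays. Phgdh, the first enzyme of serine synthesis from glucose intermediates, stood at 7.65 and 7.25 in the KO clones, against 12.60 in WT cells, at least 8.98-fold lower in KO cells (adjusted p = 0.0111). Prxl2a, a peroxiredoxin-like protein, stood at 6.32 and 6.73 in the KO clones, against 13.13 in WT cells, at least 12.9-fold lower (adjusted p = 0.000363). Baiap2l1, which links membrane curvature to actin, stood at 5.29 and 6.83 in the KO clones, against 12.75 in WT cells, at least 9.95-fold lower (adjusted p = 0.00406). In each of these both clones were below background. Flt1, a receptor for VEGF, was at least 6.15-fold lower, Ulbp1, a stress ligand of the NK cell receptor NKG2D, at least 6.02-fold, the carbonic anhydrase gene Car12 at least 5.80-fold and Elovl6, which lengthens saturated fatty acids, at least 4.67-fold (adjusted p = 0.00112, 0.000886, 0.00114 and 0.00878). The solute carrier gene Slc43a3, Prr11, Tmem64, Dmwd and the co-chaperone gene Dnajc9 had bounds of 8.88-fold, 7.31-fold, 6.93-fold, 6.88-fold and 5.25-fold lower, with adjusted p of 0.000699, 0.00111, 0.00123, 0.000606 and 0.00144.

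**Figure D3:**
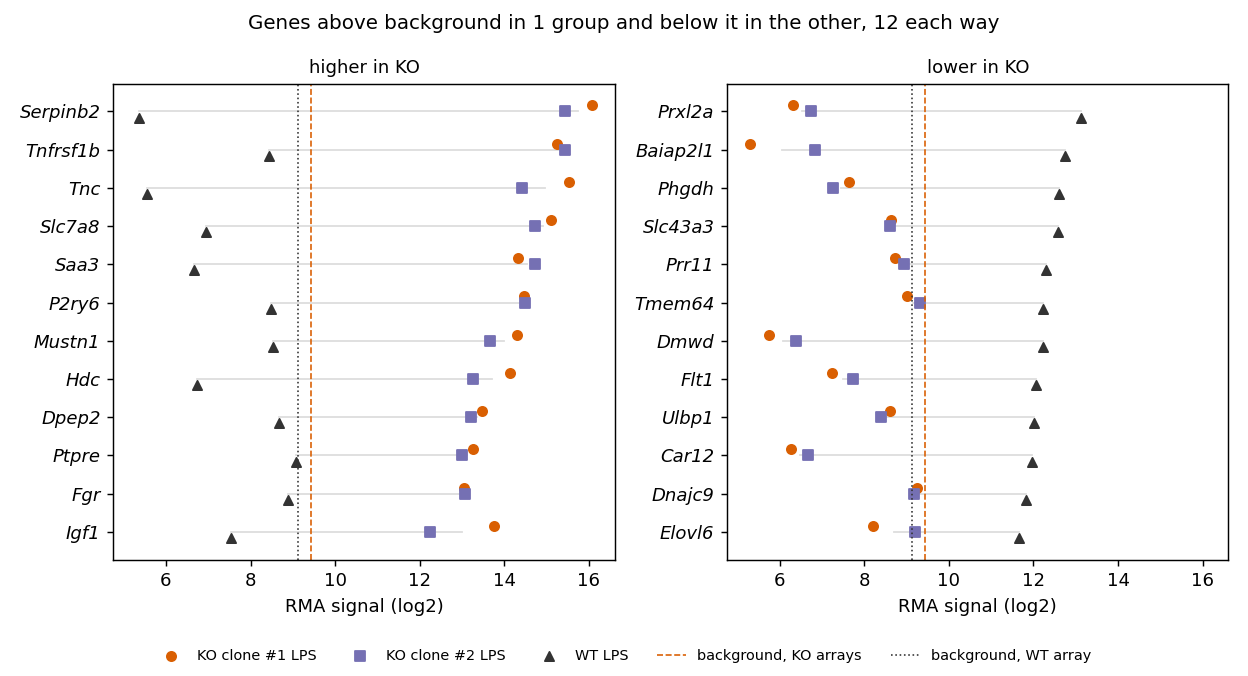
RMA log2 signal with LPS in KO clone #1 (circles), KO clone #2 (squares) and WT cells (triangles), 1 array each, for 12 genes per direction that were above background in 1 group only; the dashed line is the background of the KO arrays (9.435 and 9.434) and the dotted line that of the WT array (9.117). The WT signals in the left panel and the KO signals in the right panel lie under their own array's line.

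The genes were then read by function, in 38 lists. A list is described by how many of its measured genes rose or fell, to be read against 4.62% and 6.66% of all genes and 8.52% and 9.49% of genes above background on all 3 arrays, and by its median difference, against -0.003 and -0.08 in those sets. Where a list is said to have 0 genes in a direction, the count at an unadjusted limma p under 0.05 is given too. The shares above are of adjusted calls, and the share of all genes at that unadjusted p is not given. The unadjusted counts therefore cannot be read as an excess over all genes. Beside each pair of counts stand the lowest and highest in the 13 other fits that test all genes, some of which coincide, as said above. A count from the 2 fits restricted to genes above background is given where it lies above that range and is over 1.5 times the first count, and for the chromatin regulators. Such a count is to be read against the shares of its own fit. These were 14.2% higher and 19.2% lower of the 6504 genes above background on at least 1 array, and 14.6% and 17.1% of the 5186 above it on all 3.

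Macrophage surface receptors had the largest share of higher genes of the 38 lists. Of 31 measured, 13 (41.9%) rose and 0 fell (19 and 1 at an unadjusted p under 0.05, 13 to 18 and 0 in other fits), with a median log2 difference of 1.15, and 28 of the 31 differences were above 0. Cx3cr1, the fractalkine receptor, stood at 12.04 and 12.22 in the KO clones, against 7.42 in WT cells, at least 8.07-fold higher in KO cells (adjusted p = 0.000879). Clec4n, which encodes the fungal receptor dectin-2, stood at 11.76 and 12.92 in the KO clones, against 7.85 in WT cells, at least 9.33-fold higher (adjusted p = 0.00323). The perforin-like gene Mpeg1 stood at 13.64 and 12.05 in the KO clones, against 7.56 in WT cells, at least 13.3-fold higher (adjusted p = 0.00765). Both clones were above background for these and the WT array was not, but the clones themselves lay over 2-fold apart for Clec4n and Mpeg1. The mannose receptor gene Mrc1 was at least 3.03-fold higher (adjusted p = 0.00230). Among the genes measured on all arrays, Adgre1, which encodes F4/80, stood at 11.85 and 11.89 in the KO clones, against 9.90 in WT cells (difference 1.97, adjusted p = 0.00285), and Clec4e, the receptor Mincle, at 16.98 and 17.18 in the KO clones, against 14.90 in WT cells (difference 2.19, adjusted p = 0.00251). The scavenger receptor gene Msr1, Trem2 and the Fc receptor gene Fcgr3 rose by 1.34, 1.599 and 1.15 (adjusted p = 0.00848, 0.00930 and 0.0220). Lyz2, the brightest of the list, stood at 17.59 and 17.69 in the KO clones, against 17.38 in WT cells, and did not pass (difference 0.26, adjusted p = 0.470), while its close copy Lyz1 differed by 2.78 (adjusted p = 0.0123), and probes for the pair may share signal.

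All 6 receptors coupled to G proteins that passed in their list were higher in KO cells. Of the 34 receptors, RGS proteins and cAMP genes of the list, 8 rose and 4 fell (7 to 10 and 3 to 4 in other fits), with a median of 0.22. Ptafr, the receptor for platelet-activating factor, stood at 12.90 and 12.90 in the KO clones, against 5.93 in WT cells, at least 13.7-fold higher in KO cells (adjusted p = 0.000226). Hcar2, which senses nicotinic acid and hydroxybutyrate, and the proton-sensing receptor gene Gpr65 were at least 6.35-fold and 5.44-fold higher (adjusted p = 0.00112 and 0.00561). The medium-chain fatty acid receptor gene Gpr84 stood at 15.10 and 15.47 in the KO clones, against 13.29 in WT cells (difference 1.99, adjusted p = 0.00509), and Pde4b, a phosphodiesterase that breaks down cAMP, at 14.26 and 14.23 in the KO clones, against 10.73 in WT cells (difference 3.51, adjusted p = 0.00105). None of the fallen genes encodes a receptor. They included the β-arrestin gene Arrb1, at 8.15 and 8.97 in the KO clones, against 10.95 in WT cells (adjusted p = 0.0102), and the receptor kinase gene Grk6, at 6.89 and 7.21 in the KO clones, against 9.55 in WT cells (adjusted p = 0.00216), both below background in the clones. The other 2, the phosphodiesterase genes Pde4a and Pde3b, were below background on all 3 arrays. Gnai2, the brightest of the list, stood at 15.35 and 15.52 in the KO clones, against 15.53 in WT cells, and did not pass (adjusted p = 0.826). Of 15 purinergic and adenosine genes, 3 rose and 2 fell (3 and 1 to 3 in other fits). P2ry6 is given above, and the 2 that fell were the nucleoside transporter gene Slc29a1, at 7.57 and 7.90 in the KO clones, against 9.97 in WT cells, at least 1.45-fold lower (adjusted p = 0.00441), and the adenosine kinase gene Adk, at 11.19 and 10.83 in the KO clones, against 12.20 in WT cells (difference -1.19, adjusted p = 0.0274). Adk passed only while both untreated KO arrays were in the fit: without either, its adjusted p was 0.0642.

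Most integrin and adhesion receptor genes that passed were higher in KO cells. Of 26, 8 rose and 1 fell (8 to 13 and 0 to 2 in other fits, the 13 with an intensity trend), with a median of 0.57. Itgav, the αv integrin chain, stood at 13.66 and 13.99 in the KO clones, against 10.56 in WT cells (difference 3.27, adjusted p = 0.00146). Itgal, the αL chain of LFA-1, stood at 12.06 and 11.67 in the KO clones, against 8.75 in WT cells, at least 6.71-fold higher (adjusted p = 0.00164). Its partner Itgb2 and the fibronectin receptor chain Itga5 rose by 1.23 and 1.23 (adjusted p = 0.0173 and 0.0156). The syndecan genes Sdc4 and Sdc3, which carry heparan sulfate, rose as well: Sdc4 stood at 16.65 and 16.58 in the KO clones, against 14.11 in WT cells (difference 2.51, adjusted p = 0.00130), and Sdc3 was at least 10.0-fold higher (adjusted p = 0.0264, but 0.174 with an intensity trend and robust moderation), with 13.35 and 11.53 in the KO clones, against 5.40 in WT cells. The tetraspanin gene Cd81 was the one that fell, at 11.94 and 12.64 in the KO clones, against 13.67 in WT cells (adjusted p = 0.0468), and it was not called without clone #1 with LPS (adjusted p = 0.0551) or without either untreated KO array (adjusted p = 0.0967). Cd44, the brightest of the list, stood at 16.51 and 16.63 in the KO clones, against 16.07 in WT cells, and did not pass (difference 0.50, adjusted p = 0.172), but passed in the 2 fits with an intensity trend (adjusted p as low as 0.0191).

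Of 36 actin, podosome and cytoskeleton genes, 9 rose and 0 fell (11 and 1 at an unadjusted p under 0.05, 7 to 10 and 0 to 1 in other fits), with a median of 0.26. Scin and Baiap2l1, given above as lower, are not in this list. Arhgef3 stood at 12.70 and 12.51 in the KO clones, against 10.15 in WT cells (difference 2.46, adjusted p = 0.00156), and the filopodial myosin gene Myo10 at 12.48 and 12.46 in the KO clones, against 10.78 in WT cells (difference 1.69, adjusted p = 0.00422). Marcksl1 and Myo1f, a protein kinase C substrate that binds actin and a leukocyte myosin, were at least 5.22-fold and 2.19-fold higher (adjusted p = 0.00734 and 0.00146). Actb, the brightest of the list, had signals of 17.97 and 17.94 in the KO clones, against 17.91 in WT cells (difference 0.05, adjusted p = 0.918), a difference that turned to -0.029 after quantile normalization over the named genes.

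Of 20 genes of the plasminogen system and extracellular proteases, 6 rose and 1 fell (5 to 7 and 1 in other fits), with a median of 0.39. Beside Serpinb2 and Timp1, the urokinase receptor gene Plaur stood at 16.65 and 16.59 in the KO clones, against 14.62 in WT cells (difference 2.00, adjusted p = 0.00238). Its ligand gene Plau stood at 9.61 and 9.47 in the KO clones, against 8.08 in WT cells, only just above background in the clones, at least 1.34-fold higher (adjusted p = 0.0305, or 0.0650 without clone #1 with LPS). The called metalloproteinase genes Mmp12, Mmp13 and Mmp9 were below background on all 3 arrays, and Mmp9 was the gene of the list that fell (difference -2.41). Adam8, the brightest of the list, stood at 15.85 and 16.10 in the KO clones, against 15.93 in WT cells (adjusted p = 0.934), and its difference turned from above to below 0 without clone #2 with LPS. Of 16 matrix genes, 2 rose and 0 fell (4 and 1 at an unadjusted p under 0.05, 2 to 3 and 0 to 1 in other fits), Tnc among them, and 10 of the 16 were below background in both groups. Lgals1, which encodes the lectin galectin-1, stood at 15.73 and 15.81 in the KO clones, against 16.01 in WT cells, and did not pass (adjusted p = 0.506).

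Cell death genes that rose were both for and against apoptosis. Of 22 measured, 6 rose and 0 fell (12 and 2 at an unadjusted p under 0.05, 5 to 10 and 0 to 1 in other fits), with a median of 0.66. The 10 came with an intensity trend, and 8 rose with the replicate block or without clone #2 with LPS. Bcl2l1, the survival gene of BCL-XL, stood at 12.87 and 12.25 in the KO clones, against 10.06 in WT cells (difference 2.50, adjusted p = 0.00495). Bcl2l11, the proapoptotic gene of BIM, stood at 13.58 and 13.49 in the KO clones, against 11.45 in WT cells (difference 2.09, adjusted p = 0.00305). The death receptor gene Fas stood at 10.86 and 11.24 in the KO clones, against 7.45 in WT cells, at least 3.82-fold higher (adjusted p = 0.00132). All were higher in both clones by more than the clones differed. Birc3, an inhibitor of apoptosis and NF-κB target, rose by 1.25 (adjusted p = 0.0121). Casp8, the brightest of the list, stood at 16.05 and 15.68 in the KO clones, against 14.94 in WT cells, and did not pass (difference 0.92, adjusted p = 0.0606, or 0.0373 with the clone as a replicate block), but passed in 6 of the 15 other fits (adjusted p as low as 0.00975).

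Immediate early and stress transcription factors split by member. Of 29, 11 (37.9%) rose and 5 (17.2%) fell (6 to 15 and 3 to 5 in other fits), with a median of 0.94, and 6 rose and 3 fell when either untreated KO array was left out. Zfp36, whose product tristetraprolin degrades cytokine mRNAs, stood at 16.44 and 16.11 in the KO clones, against 13.16 in WT cells (difference 3.11, adjusted p = 0.00130). Ier3 stood at 15.23 and 14.99 in the KO clones, against 12.66 in WT cells (difference 2.44, adjusted p = 0.00193). Csrnp1 stood at 11.76 and 10.55 in the KO clones, against 5.88 in WT cells, at least 4.10-fold higher (adjusted p = 0.00241). Egr2 rose by 2.94 (adjusted p = 0.0323), a call lost without either untreated KO array. Its rise was larger in clone #2, with 10.71 and 12.29 in the KO clones, against 8.56 in WT cells. Those that fell included AP-1 members. Jun stood at 7.94 and 7.81 in the KO clones, against 9.51 in WT cells, below background in both clones and at least 1.05-fold lower (adjusted p = 0.00667). Fosl2 stood at 9.39 and 9.99 in the KO clones, against 11.08 in WT cells, below background in clone #1 (difference -1.40, adjusted p = 0.0356), while Fosl1 rose by 1.00 (adjusted p = 0.0324). Neither Fosl2 nor Fosl1 passed without clone #1 with LPS or without either untreated KO array (adjusted p from 0.0509 to 0.0748), and Fosl1 did not pass without clone #2 with LPS (adjusted p = 0.0606). Klf10, a TGF-β early response gene, stood at 7.42 and 8.78 in the KO clones, against 11.08 in WT cells, at least 3.12-fold lower (adjusted p = 0.0206, or 0.0519 without either untreated KO array). Myc was the brightest of the list, at 16.31 and 16.27 in the KO clones, against 16.45 in WT cells (difference -0.17, adjusted p = 0.669).

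Of 27 transcription factors of the myeloid lineage, 8 rose and 3 fell (7 to 9 and 2 to 5 in other fits), with a median of 0.09. Mitf, a factor of macrophages and osteoclasts, stood at 14.16 and 14.25 in the KO clones, against 12.16 in WT cells (difference 2.05, adjusted p = 0.00450). The repressor gene Etv3 stood at 13.51 and 13.02 in the KO clones, against 11.06 in WT cells (difference 2.20, adjusted p = 0.00516). Stat3, Stat5a and Cebpd rose by 1.64, 1.67 and 1.73 (adjusted p = 0.0192, 0.00563 and 0.0159). The inhibitors of basic helix-loop-helix factors went the other way. Id3 stood at 6.62 and 6.70 in the KO clones, against 10.30 in WT cells, at least 1.82-fold lower (adjusted p = 0.000809). Id1 stood at 9.10 and 10.29 in the KO clones, against 11.73 in WT cells (difference -2.03, adjusted p = 0.0466, or 0.0988 without either untreated KO array), with the clones over 2-fold apart and clone #1 below background. With the replicate block, or an intensity trend and robust moderation, 5 genes of the list fell. Spi1, which encodes PU.1 and was the brightest of the list, stood at 17.89 and 17.84 in the KO clones, against 17.88 in WT cells (adjusted p = 0.974).

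Osteoclast genes were measured without RANKL, in cells that had not been differentiated. Of 26, 9 (34.6%) rose and 3 (11.5%) fell (9 to 10 and 2 to 4 in other fits), with a median of 0.26, and 12 of the 26 differences were below 0. The kinase gene Src, needed for the ruffled border, stood at 12.64 and 12.54 in the KO clones, against 7.54 in WT cells, at least 11.1-fold higher in KO cells (adjusted p = 0.000809). The fusion gene Ocstamp stood at 13.09 and 13.41 in the KO clones, against 11.48 in WT cells (difference 1.77, standard error 0.32, adjusted p = 0.0211). Tcirg1, a subunit of the osteoclast proton pump, stood at 14.89 and 14.75 in the KO clones, against 13.40 in WT cells (difference 1.42, adjusted p = 0.00930). Both clones exceeded the WT array for all of these. The sorting nexin gene Snx10, the AP-1 repressor gene Jdp2 and the carbonic anhydrase gene Car2 rose by 1.14, 1.31 and 1.198 (adjusted p = 0.0177, 0.01002 and 0.0253), though Car2 had an adjusted p of 0.0598 without clone #1 with LPS. Tnfrsf11a, which encodes the RANKL receptor RANK, fell to 11.31 and 11.51 in the KO clones, against 12.32 in WT cells (difference -0.91, adjusted p = 0.0400), a call that was lost without clone #1 with LPS (adjusted p = 0.107) and without either untreated KO array (adjusted p = 0.0895). The other 2 genes that fell were below background on all 3 arrays. Mmp9 was among them and had the lowest difference of the list, at -2.41. Atp6v0d2, a proton pump gene of the lysosomal list below, differed by -1.72 and did not pass. The protease gene Ctsk stood at 12.42 and 10.88 in the KO clones, against 11.87 in WT cells, with the WT array between the clones.

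Genes of oxidants and antioxidants were called in 10 of 25 cases: 8 rose and 2 fell (5 to 10 and 1 to 4 in other fits), with a median of 0.36, and 5 rose and 1 fell without an untreated KO array, against 4 that fell with an intensity trend. Cybb, the catalytic subunit of the phagocyte NADPH oxidase, stood at 17.59 and 17.46 in the KO clones, against 15.38 in WT cells (difference 2.15, adjusted p = 0.00315). Srxn1, which restores oxidised peroxiredoxins, stood at 13.61 and 13.99 in the KO clones, against 12.004 in WT cells (difference 1.79, adjusted p = 0.00765). Sod2, the mitochondrial superoxide dismutase, stood at 16.18 and 16.49 in the KO clones, against 14.77 in WT cells (difference 1.56, adjusted p = 0.00934). Hmox1 and Prdx1, a heme oxygenase and a peroxiredoxin, rose by 1.49 and 0.98 (adjusted p = 0.0409 and 0.0284), but neither passed without an untreated KO array (adjusted p = 0.0741 and 0.0638), nor Prdx1 without either clone with LPS (adjusted p up to 0.0614). Glutathione genes passed in both directions. Gclc, the catalytic subunit for glutathione synthesis, stood at 11.33 and 12.11 in the KO clones, against 13.61 in WT cells (difference -1.89, adjusted p = 0.0209). That call was lost without an untreated KO array. The glutathione peroxidase gene Gpx4 stood at 10.31 and 10.34 in the KO clones, against 11.49 in WT cells (difference -1.17, adjusted p = 0.0167). The glutathione transferase gene Gstm1 rose by 1.35 (adjusted p = 0.0104).

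Iron, zinc and copper genes were higher in 8 and lower in 1 of 23 (7 to 8 and 1 in other fits), with a median of 0.54. Lcn2, which sequesters bacterial siderophores, stood at 12.98 and 13.004 in the KO clones, against 9.61 in WT cells (difference 3.38, standard error 0.20, adjusted p = 0.000938). The zinc and iron importer gene Slc39a14 stood at 13.91 and 13.80 in the KO clones, against 11.94 in WT cells (difference 1.91, adjusted p = 0.00297). Slc11a1, the phagosomal metal transporter NRAMP1, stood at 16.33 and 16.53 in the KO clones, against 14.74 in WT cells (difference 1.69, adjusted p = 0.00503). In these 3 genes the clones lay close together, above the WT array. The copper transporter gene Slc31a2, the iron transporter gene Slc11a2 and the biliverdin reductase genes Blvra and Blvrb rose by 1.81, 1.32, 1.37 and 1.45 (adjusted p = 0.00410, 0.00924, 0.0126 and 0.0151). Steap3, a ferrireductase of endosomes, fell to 7.08 and 7.48 in the KO clones, against 10.33 in WT cells, at least 1.86-fold (adjusted p = 0.00200). Fth1, the ferritin heavy chain, was the brightest, at 18.01 and 18.03 in the KO clones, against 17.94 in WT cells (adjusted p = 0.854).

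The amino acid transporters that passed rose, and most genes of serine metabolism that passed fell. Of 24 amino acid and peptide transporters, 5 rose and 0 fell (6 and 6 at an unadjusted p under 0.05, 5 to 6 and 0 to 2 in other fits), with a median of 0.04, and 2 fell without clone #2 with LPS or with an intensity trend. Slc7a11, the cystine importer, stood at 16.11 and 16.27 in the KO clones, against 13.75 in WT cells (difference 2.44, adjusted p = 0.00201). Slc15a3, a lysosomal peptide transporter, stood at 16.04 and 15.53 in the KO clones, against 13.46 in WT cells (difference 2.32, adjusted p = 0.00936). Slc7a7, which exports cationic amino acids, was at least 4.38-fold higher (adjusted p = 0.00171). Slc3a2, the heavy chain that Slc7a7, Slc7a8 and Slc7a11 share, stood at 16.82 and 17.02 in the KO clones, against 16.19 in WT cells, and did not pass (adjusted p = 0.0822), but passed in 4 of the 15 other fits, those with an intensity trend or only genes above background (adjusted p as low as 0.00821). Of 21 serine, one-carbon and ATF4 target genes, 7 (33.3%) fell and 1 (4.76%) rose (6 to 7 and 1 to 3 in other fits), with a median of -0.38, and 3 rose with the replicate block or without clone #2 with LPS, and 2 with an intensity trend. Beside Phgdh, the serine synthesis gene Psat1 stood at 13.42 and 13.55 in the KO clones, against 14.93 in WT cells (difference -1.44, adjusted p = 0.00879). Shmt2 and Shmt1, the mitochondrial and cytosolic enzymes that pass a carbon unit from serine to folate, stood at 13.50 and 13.56 in the KO clones, against 14.94 in WT cells (difference -1.42, adjusted p = 0.00845) and at 7.48 and 7.86 in the KO clones, against 10.28 in WT cells, at least 1.80-fold lower (adjusted p = 0.00457). The folate enzyme genes Mthfd1l and Mthfd1 differed by -1.43 and -1.51 (adjusted p = 0.00710 and 0.0406), but the adjusted p of Mthfd1 reached 0.0831 with 1 clone with LPS left out. Asns, an ATF4 target and the brightest of the list, stood at 15.14 and 15.21 in the KO clones, against 15.56 in WT cells (difference -0.38, adjusted p = 0.290). The gene that rose was Nupr1, a stress-induced nuclear protein, at 12.46 and 11.99 in the KO clones, against 7.81 in WT cells, at least 8.64-fold higher (adjusted p = 0.00264).

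Glycolysis genes were called in both directions. Of 25 glycolysis, glucose uptake and pentose phosphate genes, 3 rose and 6 fell (3 to 5 and 2 to 6 in other fits, the 5 with an intensity trend), with a median of -0.05, a sign that turned to 0.04 when the arrays were centred on genes above background. Pfkfb3, which makes the activator of phosphofructokinase, stood at 12.37 and 12.43 in the KO clones, against 9.11 in WT cells, at least 9.73-fold higher (adjusted p = 0.000879). The transporter gene Slc2a6 stood at 11.89 and 11.88 in the KO clones, against 8.23 in WT cells, at least 6.81-fold higher (adjusted p = 0.00130). The other gene that rose was Hk3, a hexokinase of the pathway itself. It stood at 10.49 and 9.94 in the KO clones, against 8.41 in WT cells, at least 2.14-fold higher (limma, adjusted p = 0.0117). The lactate transporter gene Slc16a3 stood at 12.98 and 13.62 in the KO clones, against 14.92 in WT cells (difference -1.62, adjusted p = 0.0275, or 0.0575 without either untreated KO array). Hk1, Tpi1 and Pfkl, also enzymes of the pathway, differed by -1.06, -1.02 and -0.96 (adjusted p = 0.0373, 0.0466 and 0.0490). The calls of fallen genes depended on the arrays used: 2 genes of the list fell without an untreated KO array and 3 without clone #1 with LPS, when the adjusted p of Hk1, Tpi1 and Pfkl was 0.0916, 0.107 and 0.120, and Pfkl did not pass without clone #2 either (adjusted p = 0.0558). Pkm, the brightest of the list, stood at 17.54 and 17.61 in the KO clones, against 17.60 in WT cells (adjusted p = 0.960). Of 18 genes of the hypoxia response, 2 fell and 0 rose (3 and 2 at an unadjusted p under 0.05, 2 and 0 to 1 in other fits), but 1 rose when either clone with LPS was left out or with an intensity trend. The prolyl hydroxylase gene Egln1 fell to 9.42 and 9.88 in the KO clones, against 11.56 in WT cells, with clone #1 below background (difference -1.91, adjusted p = 0.00780), and the MYC antagonist gene Mxi1 fell to 9.67 and 9.92, against 11.01 in WT cells (difference -1.21, adjusted p = 0.0173). Hif1a stood at 13.88 and 14.19 in the KO clones, against 13.96 in WT cells (adjusted p = 0.897).

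In the list of itaconate, arginine and TCA cycle enzymes, 3 of 21 rose and 1 fell (3 to 6 and 1 to 3 in other fits), with a median of -0.12. With the replicate block 5 rose, and with an intensity trend 6 rose and 3 fell. Acod1, which makes itaconate from a TCA cycle intermediate, stood at 17.74 and 17.84 in the KO clones, against 14.90 in WT cells (difference 2.89, adjusted p = 0.00109). Gch1, the first enzyme of tetrahydrobiopterin synthesis, stood at 13.83 and 13.08 in the KO clones, against 10.09 in WT cells (difference 3.37, adjusted p = 0.00306). Idh2, the mitochondrial NADP-dependent isocitrate dehydrogenase, stood at 12.34 and 12.40 in the KO clones, against 13.61 in WT cells (difference -1.24, adjusted p = 0.0124). Both clones lay on the same side of the WT array for each of these.

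The lipid lists, the setting in which lipin2 works, differed in how many genes passed. Of 40 genes of lipins and glycerolipid metabolism, 3 rose and 2 fell (2 to 5 and 1 to 4 in other fits), with a median of 0.13, against 5 that rose with the replicate block, 4 that fell without clone #2 with LPS and 1 that fell without either untreated KO array. The other lipin genes were below background on all 3 arrays like Lpin2: Lpin1 stood at 6.20 and 6.34 in the KO clones, against 6.31 in WT cells (adjusted p = 0.929), and Lpin3 at 6.18 and 6.12 in the KO clones, against 5.48 in WT cells (adjusted p = 0.0884). Pld3, a phospholipase D family member of lysosomes, stood at 13.01 and 13.19 in the KO clones, against 10.76 in WT cells (difference 2.34, adjusted p = 0.00179). Pla2g7, which inactivates platelet-activating factor, stood at 11.67 and 11.09 in the KO clones, against 5.202 in WT cells, at least 4.80-fold higher (adjusted p = 0.0130, but 0.0867 with an intensity trend and robust moderation). Cds2, which takes phosphatidate into CDP-diacylglycerol and so uses the substrate of lipin2, stood at 12.91 and 13.31 in the KO clones, against 14.35 in WT cells (difference -1.24, adjusted p = 0.0305, or 0.0626 at most with 1 array left out). The plasma membrane phosphatidate phosphatase gene Plpp1 stood at 10.87 and 11.58 in the KO clones, against 12.48 in WT cells, and did not pass (difference -1.25, adjusted p = 0.0605). Pld4, the brightest of the list, did not pass either, at 14.35 and 14.42 in the KO clones, against 14.16 in WT cells (adjusted p = 0.549).

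Of 26 sphingolipid genes, 6 (23.1%) rose and 1 fell (5 to 8 and 1 in other fits), with a median of 0.40. Cers6, a ceramide synthase, stood at 15.29 and 15.26 in the KO clones, against 13.88 in WT cells (difference 1.40, adjusted p = 0.00869). Sphk2, a sphingosine kinase, stood at 12.18 and 12.25 in the KO clones, against 10.73 in WT cells (difference 1.48, adjusted p = 0.00780). Smpdl3a, a sphingomyelinase-like phosphodiesterase, was at least 5.38-fold higher (adjusted p = 0.00176). Kdsr, the ketosphinganine reductase, fell to 7.26 and 7.72 in the KO clones, against 9.13 in WT cells (adjusted p = 0.0117), where the WT signal hardly exceeded background. Degs1, the brightest, stood at 15.11 and 15.17 in the KO clones, against 15.40 in WT cells (adjusted p = 0.496).

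Of 15 genes of sterol efflux and oxysterols, 4 (26.7%) rose and 1 fell (2 to 5 and 1 to 2 in other fits), with a median of 0.48, with 2 that rose without clone #1 with LPS and 2 that fell without clone #2 with LPS or with an intensity trend. Abca1, the cholesterol exporter, stood at 11.42 and 11.69 in the KO clones, against 8.11 in WT cells, at least 5.41-fold higher in KO cells (adjusted p = 0.00149). The lysosomal cholesterol carriers Npc2 and Npc1 rose by 1.55 and 1.29 (adjusted p = 0.00995 and 0.0222), but the adjusted p of Npc1 was 0.0514 without clone #1 with LPS. Scarb1, a receptor for high-density lipoprotein, stood at 10.41 and 10.73 in the KO clones, against 12.28 in WT cells (difference -1.71, adjusted p = 0.00893). Lipa, the brightest of the list, stood at 15.03 and 15.38 in the KO clones, against 14.91 in WT cells (adjusted p = 0.508). Of 21 genes of cholesterol synthesis and uptake, 0 rose and 0 fell by limma (1 and 2 at an unadjusted p under 0.05, 0 to 1 and 0 to 1 in other fits), with differences from -1.26 (Dhcr7) to 1.39 (Insig1). With an intensity trend, with the replicate block or without clone #2 with LPS, 1 rose, and robust moderation beside the trend added 1 that fell. Srebf2, the brightest, stood at 13.81 and 13.92 in the KO clones, against 14.09 in WT cells (adjusted p = 0.590). Of 25 fatty acid genes, 0 rose and 4 fell (3 and 5 at an unadjusted p under 0.05, 0 to 4 and 3 to 5 in other fits), with a median of -0.08 that turned to 0.01 after centring on genes above background. With an intensity trend 4 rose, and without clone #2 with LPS 2 did. Beside Elovl5 and Elovl6 these were the fatty acid binding protein gene Fabp5, at 7.89 and 7.34 in the KO clones, against 9.46 in WT cells (adjusted p = 0.0120), and Cpt1a, at 7.63 and 8.04 in the KO clones, against 9.21 in WT cells (adjusted p = 0.0478), both near background in WT cells, with adjusted p for Cpt1a up to 0.103 in other fits. Lpl, the lipoprotein lipase gene, was the brightest and did not pass, at 16.29 and 16.28 in the KO clones, against 15.61 in WT cells (difference 0.68, adjusted p = 0.0756), but passed in 4 of the 15 other fits, those with an intensity trend or only genes above background (adjusted p as low as 0.00397).

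How many genes of protein folding and degradation passed depended on the fit. Of 27 ER chaperones and unfolded protein response genes, 5 rose and 0 fell (11 and 1 at an unadjusted p under 0.05, 2 to 8 and 0 to 1 in other fits), with a median of 0.40, but 2 rose without an untreated KO array, and 8 rose and 1 fell with an intensity trend. Dnajb9, an ER co-chaperone, stood at 13.13 and 12.90 in the KO clones, against 11.08 in WT cells (difference 1.93, adjusted p = 0.00397). Dnajc3, which inhibits the kinase PERK, stood at 12.63 and 12.64 in the KO clones, against 11.50 in WT cells (difference 1.13, adjusted p = 0.0147). Hspa5, the main ER chaperone BiP, stood at 17.77 and 17.85 in the KO clones, against 17.55 in WT cells, and did not pass (difference 0.27, adjusted p = 0.470). Of 14 cytosolic heat shock genes, 1 rose and 1 fell (1 to 3 and 0 to 2 in other fits): Dnajb4 was at least 2.16-fold higher (adjusted p = 0.00646), and Ahsa1 differed by -0.90 (adjusted p = 0.0415, up to 0.110 in other fits), while without clone #2 with LPS 3 rose and 2 fell, and 2 also fell with an intensity trend or the replicate block. Hsp90aa1, the brightest, stood at 16.20 and 16.22 in the KO clones, against 16.68 in WT cells (adjusted p = 0.240). Of 32 lysosomal genes, 2 rose and 0 fell (9 and 1 at an unadjusted p under 0.05, 1 to 7 and 0 to 1 in other fits), with a median of 0.23. With an intensity trend 7 rose, and 1 rose when clone #1 with LPS or either untreated KO array was left out. The mannosidase gene Man2b1 was at least 2.77-fold higher (adjusted p = 0.0177), and the proton pump gene Atp6v0d1 differed by 0.90 (adjusted p = 0.0471), which was lost when any KO array was left out. Laptm5, the brightest, stood at 16.76 and 16.87 in the KO clones, against 16.91 in WT cells (adjusted p = 0.822). Of 23 autophagy genes, 2 rose and 0 fell (4 and 2 at an unadjusted p under 0.05, 1 to 3 and 0 in other fits). When only genes above background were tested, 4 rose, of the 12 that were above it on at least 1 array. Sqstm1, the autophagy receptor p62, stood at 15.99 and 16.53 in the KO clones, against 14.49 in WT cells (difference 1.78, adjusted p = 0.0133), and Gabarapl1 differed by 0.85 (adjusted p = 0.0419, also lost when any KO array was left out). Of 24 constitutive proteasome subunits, 0 rose and 0 fell (1 and 0 at an unadjusted p under 0.05, 0 and 0 in other fits), with differences from -0.23 to 0.51 and Psma4, the brightest, at 15.46 and 15.38 in the KO clones, against 15.23 in WT cells (adjusted p = 0.604).

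Of 32 ribosome biogenesis genes, 1 fell and 0 rose (10 and 0 at an unadjusted p under 0.05, 0 to 4 and 0 in other fits). With an intensity trend 4 fell, and 5 did when only genes above background on all 3 arrays were tested. All 32 differences were below 0, from -1.14 to -0.01 with a median of -0.42. Centred on genes above background, 29 of the 32 were below 0, with a median of -0.33. The called gene was Nolc1, a nucleolar phosphoprotein, at 11.67 and 11.71 in the KO clones, against 12.82 in WT cells (difference -1.14, adjusted p = 0.0344), which did not pass when either clone with LPS was left out. Npm1, the brightest of the list, stood at 16.53 and 16.42 in the KO clones, against 16.64 in WT cells (adjusted p = 0.692). Of 18 splicing and RNA-binding genes, 0 rose and 0 fell (0 and 3 at an unadjusted p under 0.05, 0 and 0 to 3 in other fits), with a median of -0.29 and 18 differences below 0, or 15 after centring on genes above background, and 3 fell with an intensity trend. Hnrnpa2b1, the brightest, stood at 16.94 and 16.81 in the KO clones, against 17.07 in WT cells (adjusted p = 0.611). Of 18 ribosomal protein genes, 0 rose and 0 fell (0 and 0 at an unadjusted p under 0.05, 0 and 0 in other fits), with differences from -0.28 to -0.01, of which 13 were below 0 after centring on genes above background. Rps23, the brightest, stood at 17.44 and 17.43 in the KO clones, against 17.57 in WT cells (adjusted p = 0.727). Of 18 aminoacyl-tRNA synthetases, 0 rose and 0 fell (0 and 3 at an unadjusted p under 0.05, 0 and 0 to 2 in other fits), with a median of -0.15, and 2 fell with the replicate block or with an intensity trend and robust moderation. Eprs, the brightest, stood at 15.34 and 15.38 in the KO clones, against 15.82 in WT cells (adjusted p = 0.201, but as low as 0.0273 with an intensity trend). Of 25 genes of the respiratory chain and ATP synthase, 0 rose and 0 fell (0 and 0 at an unadjusted p under 0.05, 0 and 0 in other fits), with differences from -0.49 to 0.48. Atp5b, the brightest of them, stood at 16.67 and 16.70 in the KO clones, against 16.90 in WT cells (adjusted p = 0.556). As a WT array stands alone, a p above the threshold does not show that these genes were alike in KO and WT cells.

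More chromatin regulators fell than rose. Of 28, 3 rose and 7 fell (2 to 4 and 4 to 7 in other fits), with a median of -0.08 that turned to 0.01 after centring on genes above background, and 4 fell without clone #1 with LPS. When only genes above background on all 3 arrays were tested, 4 rose and 4 fell. Kdm6b, which removes a repressive methyl mark from histone H3, stood at 14.20 and 14.01 in the KO clones, against 12.02 in WT cells (difference 2.09, adjusted p = 0.00252). Jarid2, a partner of the polycomb repressive complex that writes that mark, stood at 14.59 and 13.99 in the KO clones, against 11.58 in WT cells (difference 2.71, adjusted p = 0.00441). Suz12, a core subunit of the same complex, stood at 13.19 and 12.998 in the KO clones, against 14.27 in WT cells (difference -1.17, adjusted p = 0.0169). These regulators of the same mark did not share a direction. Hdac9, at 8.50 and 8.99 in the KO clones, against 10.30 in WT cells, was at least 1.82-fold lower (adjusted p = 0.0176), and Asxl1 and Sirt1 differed by -1.23 and -1.11 (adjusted p = 0.0144 and 0.0217). Brd2, the brightest of the list, stood at 14.11 and 14.38 in the KO clones, against 13.92 in WT cells (adjusted p = 0.621).

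Of 18 nuclear receptors, 2 rose and 1 fell (1 to 2 and 0 to 2 in other fits), with a median of -0.05 that turned to 0.04 after centring on genes above background. Only 8 of the 18 were above background on at least 1 array, and 4 of these fell when only such genes were tested. Nr3c1, the glucocorticoid receptor gene, stood at 9.49 and 9.46 in the KO clones, against 8.30 in WT cells, just above background in the clones, at least 1.28-fold higher (adjusted p = 0.0252, or 0.0559 without clone #1 with LPS). The clock repressor gene Nr1d1 stood at 12.72 and 12.998 in the KO clones, against 11.78 in WT cells (difference 1.08, adjusted p = 0.0316, up to 0.0683 with 1 array left out), and Nr2c2, below background in clone #1, at 9.39 and 9.56 in the KO clones, against 10.33 in WT cells (adjusted p = 0.0457, up to 0.121). Of 13 circadian clock genes, the 4 that rose and the 1 that fell were all below background on all 3 arrays (2 to 5 and 1 in other fits), 2 rose when clone #1 with LPS or either untreated KO array was left out or with an intensity trend, and Clock, the brightest, stood at 14.05 and 14.21 in the KO clones, against 14.38 in WT cells (adjusted p = 0.571). Of 27 growth factors and receptor tyrosine kinases, 4 rose and 1 fell (2 to 5 and 1 in other fits), with a median of 0.09, and 2 rose without an untreated KO array. Beside Igf1 and Flt1, the coreceptor gene Nrp2 stood at 16.27 and 16.34 in the KO clones, against 15.26 in WT cells (difference 1.05, adjusted p = 0.0218, or 0.0542 without an untreated KO array). Of 21 complement and coagulation genes, 2 rose and 2 fell (2 to 5 and 2 in other fits), against 5 that rose with the replicate block and 4 without clone #2 with LPS, and 3 of the 4 called were below background on all arrays. The exception, Cfp, which stabilises the alternative pathway convertase, stood at 14.08 and 13.86 in the KO clones, against 15.64 in WT cells (difference -1.67, adjusted p = 0.0133).

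**Figure D4:**
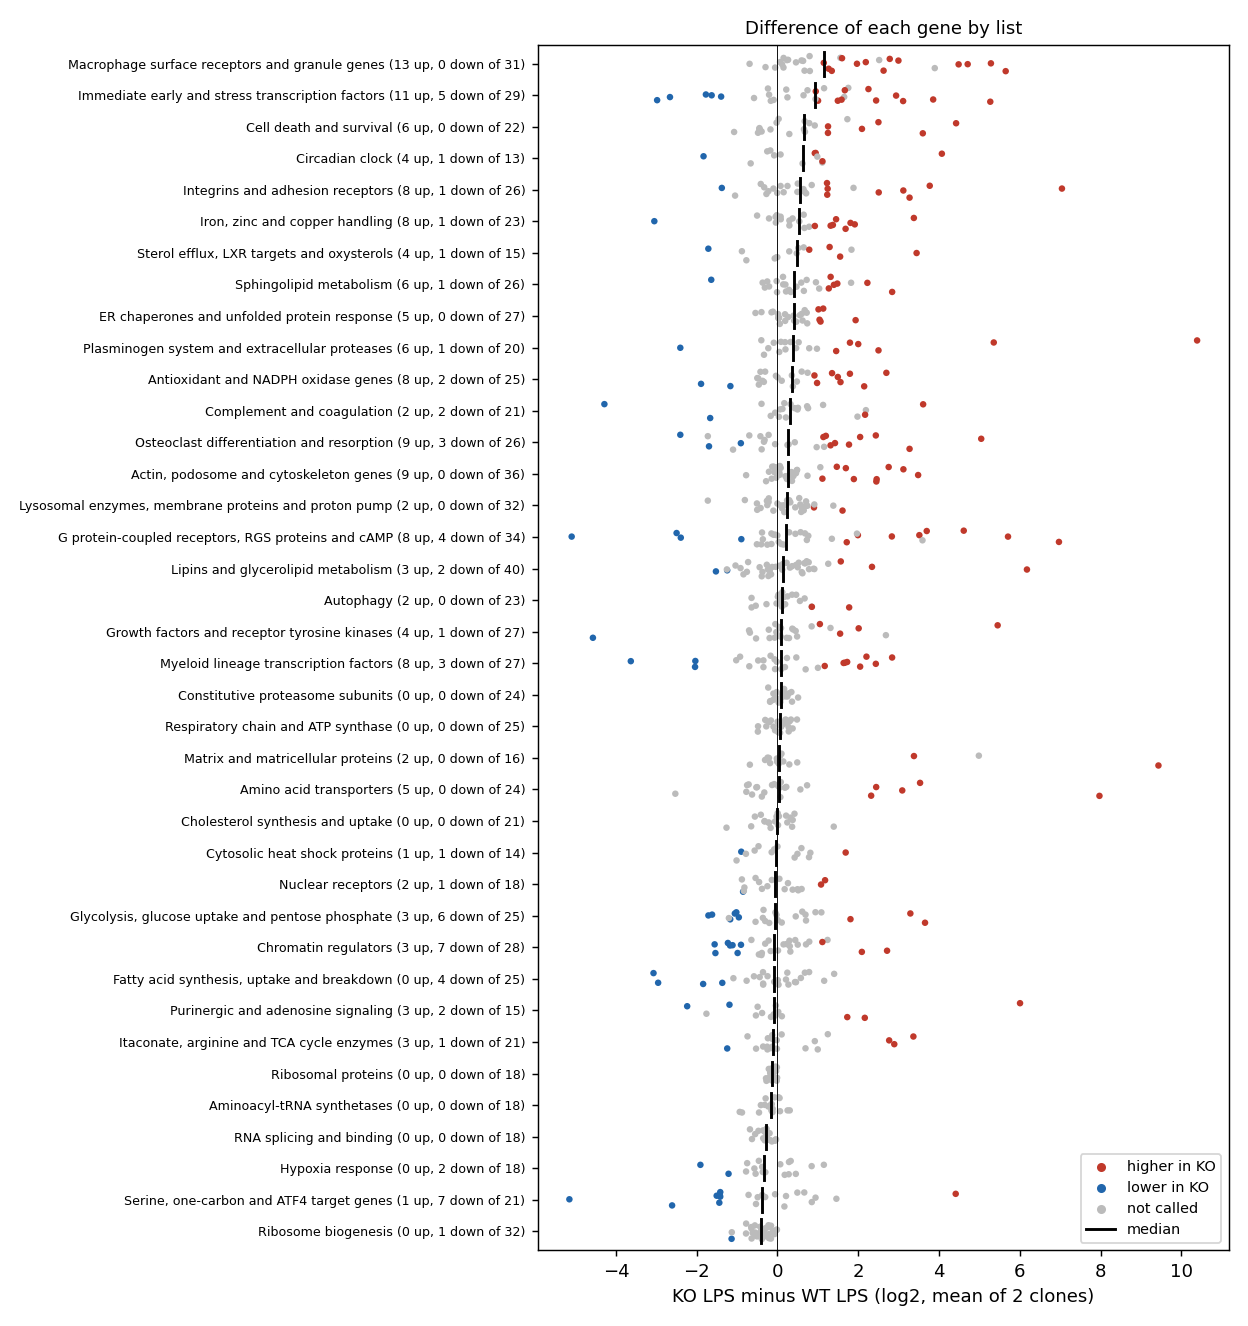
Log2 difference of KO cells (mean of 2 clones) from the WT array with LPS for each measured gene of the 38 lists, 1 point per gene, red if higher, blue if lower and grey if not called at an adjusted p of 0.05; the bar is the median of the list and the labels give the counts. Macrophage surface genes lie highest, with a median of 1.15, and ribosome biogenesis genes lowest, at -0.42.

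Promoter sequence was read for letters of known binding sites, as a description of the genes called. RefSeq promoters (GRCm38.p6, 250 bases before to 50 after each start) were found for 424 of the 518 genes that rose and were above background in both clones, for 553 of the 646 that fell and were above background in WT cells, and for 3458 of the 4172 genes above background on all 3 arrays that were not called. These sets leave out the cytokine, interferon and cell cycle genes by name, while all 27025 genes with a promoter, given beside them, include those genes. A gene held a motif if any of its promoters did, on either strand. The NF-κB letters (GGGA, any base, TT, any base, CC) stood in 3.07% of the genes that rose (13 genes), in 0.904% of those that fell, in 1.47% of those not called and in 1.38% of all 27025 genes with a promoter. The E2F letters GGCGGGAA stood in 3.07%, 8.68% (48 genes), 4.77% and 2.52% of the same sets. Among the fallen genes that hold them are genes of cell division, replication or repair whose names were not in the list left aside, such as Zw10, Mcmbp, Pds5a, Rnf168 and Recql. The share is therefore not one of genes outside those groups alone. The AP-1 letters TGANTCA stood in 8.96%, 5.24%, 5.23% and 8.97%, and the PU.1 letters GAGGAAGT in 5.90%, 3.25%, 4.08% and 3.69%. The cAMP response element TGACGTCA stood in 3.30%, 3.98%, 3.99% and 2.03%, and the antioxidant response element TGACNNNGC in 17.2%, 19%, 16.7% and 14%. An AP-1 or cAMP site can overlap an antioxidant site, so a stretch of letters can count for more than 1 motif. The motifs were chosen after the calls were known and no test was made of these shares. Promoters were found for 22 of 24 higher genes: the 12 largest differences above background on all 3 arrays and the 12 largest bounds. None of these 22 held the NF-κB letters, so the genes shown were picked because they hold them. Only this pattern in this window was searched, so a gene without a match may still have a site of other letters or elsewhere. These 24 are not the largest increases of all. Rasgef1b, below background in WT cells and not among them, holds the letters and differed by 5.10 (limma, adjusted p = 0.0111).

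The following windows of 80 bases from the promoters, 5′ to 3′ on the strand of the gene, are of 4 genes that rose, with the NF-κB letters in capitals. Slc7a7 is described among the amino acid transporters, Nfkb2 encodes the NF-κB subunit p100, Tnip3 a partner of A20, and Tlr2 the receptor of bacterial lipoproteins.
Slc7a7, chr14:54417782-54417861, minus strand: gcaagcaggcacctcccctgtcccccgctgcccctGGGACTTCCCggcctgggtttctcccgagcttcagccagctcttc
Nfkb2, chr19:46304657-46304736, plus strand: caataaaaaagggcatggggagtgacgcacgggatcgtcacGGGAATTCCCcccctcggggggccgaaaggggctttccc
Tnip3, chr6:65590309-65590388, plus strand: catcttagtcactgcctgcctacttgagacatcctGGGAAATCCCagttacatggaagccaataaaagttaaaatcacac
Tlr2, chr3:83841736-83841815, minus strand: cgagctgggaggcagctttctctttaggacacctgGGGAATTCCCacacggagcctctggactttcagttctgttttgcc

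Nfkb2 stood at 11.87 and 11.50 in the KO clones, against 9.65 in WT cells (difference 2.04, adjusted p = 0.00492). Tnip3 stood at 16.13 and 16.19 in the KO clones, against 14.82 in WT cells (difference 1.34, adjusted p = 0.00859), and Tlr2 at 15.76 and 15.65 in the KO clones, against 14.57 in WT cells (difference 1.14, adjusted p = 0.0158). The letters of Nfkb2 and Tlr2 read GGGAATTCCC, a palindrome that is the same on either strand. Those of Tnip3 fit the pattern only when read on the opposite strand, as the reverse complement. A further 4 windows of the same length are of genes that fell and hold the E2F letters, in capitals as they read on the strand of the gene: Scin, which fell most among the genes measured on all 3 arrays, the folate gene Mthfd1, the ribosome biogenesis gene Nolc1 and the chromatin gene Asxl1.
Scin, chr12:40134237-40134316, minus strand: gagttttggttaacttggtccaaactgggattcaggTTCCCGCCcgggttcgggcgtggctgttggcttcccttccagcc
Mthfd1, chr12:76255142-76255221, plus strand: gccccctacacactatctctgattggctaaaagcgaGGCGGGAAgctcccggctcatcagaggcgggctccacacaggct
Nolc1, chr19:46075695-46075774, plus strand: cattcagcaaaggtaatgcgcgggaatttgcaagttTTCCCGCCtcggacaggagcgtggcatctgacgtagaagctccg
Asxl1, chr2:153345580-153345659, plus strand: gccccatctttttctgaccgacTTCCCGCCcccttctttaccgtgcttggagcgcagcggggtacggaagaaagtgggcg

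A match says only that the letters are there. In Scin, Nolc1 and Asxl1 they read TTCCCGCC, the reverse complement, and in Mthfd1 GGCGGGAA. The differences of Scin, Mthfd1, Nolc1 and Asxl1 were -3.76, -1.51, -1.14 and -1.23, with adjusted p of 0.000886, 0.0406, 0.0344 and 0.0144.

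The clones were not alike in every gene. With LPS, 468 genes were over 2-fold apart between clones #1 and #2, 339 of them outside the groups left aside and 77 among the 5186 genes above background on all 3 arrays. The median absolute difference between the clones was 0.20 over all genes. Treml4, a receptor of the TREM family, stood at 9.89 and 12.36 in the KO clones, against 9.78 in WT cells, so that clone #2 alone departed from the WT array. Enpp4, a phosphodiesterase of the ectonucleotide family, stood at 13.03 and 11.05 in the KO clones, against 10.93 in WT cells, with clone #1 alone apart. For Ctsk, the creatine transporter gene Slc6a8 (10.74 and 12.93 in the KO clones, against 11.59 in WT cells) and Sgsm1 (10.10 and 11.62 in the KO clones, against 11.19 in WT cells) the WT array lay between the clones. The mitochondrial glutamate carrier gene Slc25a22 and the carbonic anhydrase gene Car13 were higher in clone #1, and Slc43a2, a transporter of branched amino acids, was below the WT array in both clones but far more so in clone #1, at 10.203 and 12.27 in the KO clones, against 13.76 in WT cells. None of these 8 genes passed the test (limma, adjusted p of 0.105 or more). With the clone as a replicate block, which leaves clone differences out of the error, Slc25a22, Car13, Treml4 and Slc43a2 passed (adjusted p = 0.0246, 0.0316, 0.0139 and 0.0128). Without clone #2 with LPS, Enpp4, Slc25a22, Car13 and Slc43a2 passed (adjusted p = 0.00316, 0.0104, 0.00852 and 0.000883), and without clone #1 Slc43a2 did (adjusted p = 0.0216).

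**Figure D5:**
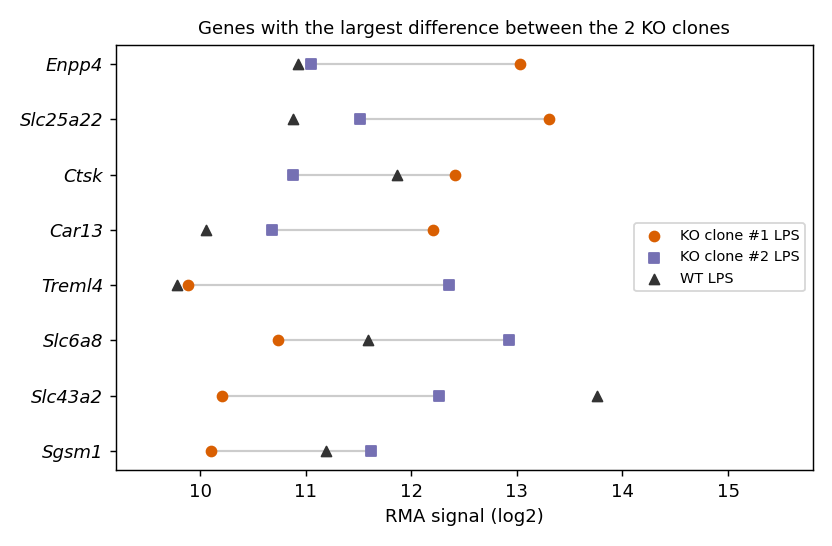
RMA log2 signal with LPS in KO clone #1 (circles), KO clone #2 (squares) and WT cells (triangles), 1 array each, for the 8 genes above background on all 3 arrays with the largest differences between the clones, 4 in each direction. The WT array lies between the clones for Ctsk, Slc6a8 and Sgsm1.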

How the data were processed

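RNA (100 ng) from 6 cultures of RAW-D cells was hybridised to mouse Clariom S arrays, and the 3 arrays with LPS were compared, in groups taken from the labelled genotype and treatment. The authors summarised the scans by RMA in Expression Console to the deposited log2 values (software version not given in the sources used here). Their labels name a gene-level summary for the untreated WT array and an exon-level summary for the other 5. The values reach 18.56, above what a 16-bit scan gives, so a further step that is not stated may have been applied, and fold changes rest on the scale being log2. The number of arrays limits the precision.

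Of 22206 gene probe sets, 19572 had a symbol in the array annotation and 2634 had none. Several probe sets were listed for 55 genes, and the brightest on average was used. The background percentile came from 5222 negative control probes per array. Differences were tested with limma 3.58.1 in R 4.3.3 on all 6 arrays with 1 mean per group (2 residual and 3.83 prior degrees of freedom) and adjusted by Benjamini-Hochberg over all 19505 genes, at 0.05. The script was tested on simulated data. The clones were measured in both treatments, so the clone numbers pair the KO arrays: deviations from the group means correlated across genes at 0.222 between the treatments, and a fit with the clone as a replicate block was an alternative. Other alternatives were each array left out, the 3 LPS arrays alone, other normalizations, an intensity trend, filters on dim genes, other thresholds and the methods' t-test. A group of 1 array adds nothing to the spread. Leaving out the untreated WT array therefore repeats the fit on all 6 arrays. Leaving out either untreated KO array repeats that of the 3 LPS arrays alone.

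The genes named were the 12 largest differences each way among genes above background on all 3 arrays, the 12 largest bounds each way among those above it in 1 group, up to 4 called genes per list with its brightest gene, Lpin2, and the 4 largest differences each way between the clones. Further list members and the genes with printed promoters were named after their values were seen. The comparison, the lists and their members were chosen with earlier results of these data known.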

Additional observations from a re-analysis of the deposited data

Results flagged for a closer look

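Probe sets without a gene symbol were not used in the comparison. Among these 2634, 45 (1.71%) were over 2-fold higher in each KO clone and above background in both clones, and 66 (2.51%) were over 2-fold lower in each clone and above background in WT cells. Among the named genes, 587 (3.01%) and 770 (3.95%) met the same rules. These probe sets were drawn to attention as signal outside the main measurement, and no test or name is given for them.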

How the results depend on the processing

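No gene called higher was called lower in any other fit, or the reverse, but this had little room to come out otherwise. All fits use the same WT array with LPS, and both clones lay on the same side of it for every called gene. Leaving out a clone or changing the error model could therefore not reverse a call. The counts of higher and lower genes were 1146 and 1500 with the clone as a replicate block, of which 886 and 1273 were also called without it. Leaving out 1 array at a time gave 633 to 1074 higher and 902 to 1438 lower genes, the lowest without either untreated KO array and the highest without clone #2 with LPS. An intensity trend gave 1072 and 1506 genes, and 1036 and 1597 with robust moderation. Tested on the 6504 genes above background on at least 1 array, 923 (14.2%) and 1248 (19.2%) passed. On the 5186 above it on all 3 arrays, 757 (14.6%) and 886 (17.1%) passed, of which 442 and 492 had also passed over all genes. Other normalizations gave 890 to 1003 higher and 1143 to 1349 lower genes. The methods' t-test called 791 and 1043 genes at an unadjusted p under 0.05 and 0 and 0 after Benjamini-Hochberg adjustment. Of the 1941 genes over 2-fold in each clone, 745 remained at 4-fold, and 3656 passed 1.5-fold. Differences that changed sign were all of genes that had not passed. With 1 array left out, they ran from -0.084 to 0.17 for Adam8, from -0.061 to 0.011 for Pkm, from -0.0865 to 0.23 for Hif1a, from -0.040 to 0.0067 for Spi1, from -0.99 to 0.55 for Ctsk, from -0.85 to 1.34 for Slc6a8 and from -1.09 to 0.43 for Sgsm1, the sign turning with the clone left out. Quantile normalization gave -0.052 for Adam8 and -0.029 for Actb, and centring on genes above background 0.063 for Pkm and 0.072 for Spi1. With the replicate block, which leaves clone differences out of the error, Lpin2, Casp8, Slc25a22, Car13, Treml4 and Slc43a2 passed as well. The single WT array with LPS, single clones, signal near background and the unstated step in the scale are limits that no alternative here removes.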

Other observations

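The calls were spread over the chromosomes. Among the 4901 genes outside the groups left aside that were above background on all 3 arrays and have a chromosome in RefSeq, 380 (7.75%) rose and 349 (7.12%) fell. The share that rose ran from 3.26% on chromosome 5 (11 of 337) to 12.7% on chromosome 14 (23 of 181), and the share that fell from 4.42% on chromosome 14 (8 of 181) to 10.5% on chromosome 19 (19 of 181). The median log2 difference per chromosome lay between -0.17 (chromosome 17) and 0.08 (chromosome 14), and the median difference between the clones between -0.09 and 0.01. No test was made of these shares, which were looked at after the calls were known.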
